A study of Homo sapiens with 6 samples.

Results

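The TNF receptor superfamily members described here were 10 genes, TNFRSF1A, TNFRSF1B, TNFRSF10A, TNFRSF10B, TNFRSF10D, TNFRSF11A, TNFRSF11B, TNFRSF12A, TNFRSF21 and FAS, chosen by symbol from the 60664 genes of the count table. All 10 passed the filter on low counts, among 15130 genes tested. RNA-seq was performed on SiHa, an established human cervical squamous carcinoma line, in 3 libraries of SiHa PR cells and 3 libraries of SiHa PR P4HA3 cells. PR cells are the parental cells of the highly LN metastatic SiHa LNM2 line, and P4HA3, a subunit of the collagen prolyl hydroxylase, was overexpressed from a lentivirus. The control libraries are labelled only SiHa PR, and the study describes its overexpression controls as vector cells. No drug, time or genotype label separates the groups, and the labels do not say whether the libraries of a group came from separate cultures, so each p-value measures the spread between these libraries, which may be technical.

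Receptors of this superfamily bind trimeric ligands of the TNF superfamily through cysteine-rich repeats outside the cell. Some carry a death domain, which recruits FADD or TRADD and through them caspase-8 or RIPK1, while others bind TRAF adaptors directly and lead to NF-kB and JNK. Decoy members bind a ligand without passing on a full death signal, and the balance of death receptors, decoys and NF-kB output is known to set how epithelial tumor cells answer TNF, TRAIL and FAS ligand.

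Among the members, TNFRSF1A, the main TNF receptor, was the second most abundant per length. Its RNA fell with P4HA3 as counted, though it was not called once trends on GC content and length were removed. TNFRSF11A, the receptor RANK, had the lowest mean level per length in SiHa PR, within the range of TNFRSF1B, and was not called. With P4HA3 the mean of TNFRSF1B was the lowest. The bases upstream of the RefSeq transcription starts of TNFRSF1A and TNFRSF11A set a strongly and a weakly expressed member side by side. Those of TNFRSF21, a member of middle level, are also shown. The sequences are from RefSeq (GRCh38.p14), run 5′ to 3′ on the strand of the gene and stop where an annotated exon begins. Capitals mark GGGCGG on either strand, the core letters bound by SP1-type factors.
TNFRSF1A, chr12:6342115-6342326, minus strand: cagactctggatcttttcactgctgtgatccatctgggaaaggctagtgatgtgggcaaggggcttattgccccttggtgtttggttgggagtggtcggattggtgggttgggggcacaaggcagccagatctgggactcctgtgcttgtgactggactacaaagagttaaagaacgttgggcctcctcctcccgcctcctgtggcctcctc
TNFRSF21, chr6:47309906-47310155, minus strand: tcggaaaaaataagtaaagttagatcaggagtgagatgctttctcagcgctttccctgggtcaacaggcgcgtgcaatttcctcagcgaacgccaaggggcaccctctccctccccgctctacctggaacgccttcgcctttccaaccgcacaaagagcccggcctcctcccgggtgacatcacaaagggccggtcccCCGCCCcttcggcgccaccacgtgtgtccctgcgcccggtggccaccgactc
TNFRSF11A, chr18:62325060-62325286, plus strand: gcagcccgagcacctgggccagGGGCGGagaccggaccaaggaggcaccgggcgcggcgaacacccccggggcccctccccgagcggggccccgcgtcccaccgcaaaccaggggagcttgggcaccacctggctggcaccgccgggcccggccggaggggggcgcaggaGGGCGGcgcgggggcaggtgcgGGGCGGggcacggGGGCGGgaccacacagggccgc
Over the whole 250 bases before the start, the TNFRSF1A window held 4 CpG and no GGGCGG, the TNFRSF21 window 20 CpG and 1 GGGCGG, and the TNFRSF11A window 30 CpG and 4 GGGCGG. The median of 35116 RefSeq promoters was 11 CpG in 250 bases, and 42.6% of them held GGGCGG on either strand. None of these 3 windows matched the NF-kB consensus, found in 9.96% of promoters, nor TGANTCA, found in 6.57%, nor TATAAA, found in 10.7%, on either strand. FAS has 3 windows, of which 1 held the NF-kB consensus, 157 bases upstream, and another held TGANTCA. The TNFRSF1B window held 22 CpG and 2 GGGCGG whose letters overlap. These matches describe the letters of the window only. Windows were matched for TNFRSF1A, TNFRSF1B, TNFRSF11A, TNFRSF21 and FAS, not for TNFRSF12A, and those of the other members were not looked up.

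Total counts ran from 21773488 to 24589095 in SiHa PR and from 22160298 to 24939948 in SiHa PR P4HA3, so that a floor of 3 counts was 0.118 to 0.141 CPM, for counting error only. P4HA3 itself had 62 to 93 counts in SiHa PR and 44775 to 49097 with overexpression. Of all genes tested, 20.8% were called at an adjusted p under 0.05 (edgeR quasi-likelihood test, Benjamini-Hochberg), 9.36% higher and 11.4% lower. The log2 fold change of all genes followed GC content, with a Spearman's rho across genes of -0.58 (15107 genes, which are not independent), and single libraries of both groups deviated along GC content in both directions (rho from -0.52 to 0.45). The members are therefore also given with the libraries' trends on GC content and transcript length removed, which called 18.2% of genes and takes out anything in the group difference that follows GC content or length. KRT7, KRT8 and KRT18, keratins of simple epithelium, stood at 4329, 1817 and 942 CPM in SiHa PR, while KRT5, a basal squamous keratin, had 3 to 4 counts per library. Of 10 smooth muscle markers, a tissue named in the growth protocol label, DES, MYH11 and CNN1 had at most 9 counts in a library. SMTN, with 1948 to 2541 counts, made up most of the list's sum of 96 to 106 CPM in SiHa PR and 94.9 to 112 CPM with P4HA3. ACTA2 had 161 to 204 counts. ACTG2 varied between libraries, with 0, 1 and 30 counts in SiHa PR and 40, 1 and 44 with P4HA3. Of the 3 tested smooth muscle markers 0 were called, against 20.8% of all genes. With the trends removed SMTN was called higher (log2 fold change 0.26, edgeR adjusted p = 0.00449). A list of epithelial markers, drawn up for a squamous carcinoma line, also holds the simple keratins above. KRT5 and TP63 of this list, the latter with 3 to 13 counts per library, were not tested. Of the list's 8 tested markers 4 fell (50% called, against 20.8% of all genes). They were KRT6A (log2 fold change -1.26), CDH1 (-0.77), KRT18 (-0.40) and CDKN2A (-0.27). With the trends removed 3 fell, without CDKN2A (-0.09, edgeR adjusted p = 0.162), and KRT7 rose (0.31, edgeR adjusted p = 0.00282). The KRT18 call ended without SiHa PR replicate 1 or 2 or P4HA3 replicate 3. That of CDKN2A ended without SiHa PR replicate 1 or 2 or P4HA3 replicate 2 or 3. The sum of the whole list was 7020 to 7880 CPM in SiHa PR and 6940 to 7980 CPM with P4HA3. Of 2 tested endothelial markers 1 fell (50% called, against 20.8% of all genes). It was PECAM1 (log2 fold change -1.03), with 30 to 73 counts per library. VWF and CDH5 had at most 2 counts, and the list's sum was 4.82 to 6.66 CPM in SiHa PR against 2.71 to 3.82 CPM with P4HA3. Of 10 leukocyte markers PTPRC had at most 1 count, and the summed level, almost all of it CD14, was 91.3 to 110 CPM in SiHa PR and 35.2 to 51 CPM with P4HA3. The part of these marker differences in the results was not tested, and in bulk RNA fewer cells of a type and less RNA per cell cannot be told apart.

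The question addressed was which receptors of the family differed in RNA between P4HA3-overexpressing and control cells. Of the 10 members, 2 fell, TNFRSF1A and TNFRSF11B, and 0 rose, so that 20% were called against 20.8% of all genes tested. Groups did not overlap for TNFRSF1A, TNFRSF11B and TNFRSF10D, which is 3 of 10 members, against 40.1% of all genes. Both shares were near or below the background. The median log2 fold change of the members was -0.0063, and that of all genes tested 0.0055. With the trends removed 1 member rose (TNFRSF12A) and 1 fell (TNFRSF11B), with a median of -0.04 against 0.01 for all genes. For a single gene, the exact permutation test of 3 libraries against 3 cannot go below 0.1 (two-sided), which it reached for the 3 members whose groups did not overlap.

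**Figure D1:**
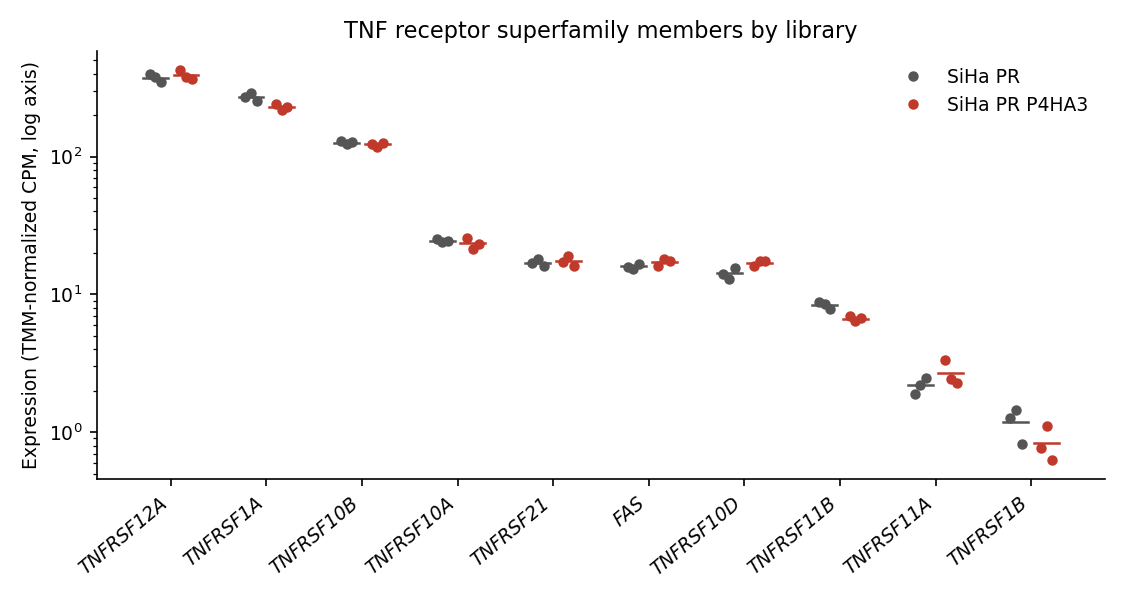
Expression of each member in each library, in TMM-normalized CPM on a log axis, with SiHa PR in grey, SiHa PR P4HA3 in red and the group means as bars. TNFRSF12A, TNFRSF1A and TNFRSF10B lie above 100 CPM in every library, and TNFRSF11A and TNFRSF1B lie below 4 CPM.

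Levels of different genes were compared per kilobase of the canonical transcript. In SiHa PR the order of the mean level was TNFRSF12A (383 CPM per kb), TNFRSF1A (125), TNFRSF10B (31.6), TNFRSF10A (9.14), TNFRSF21 (4.73), FAS (4.31), TNFRSF10D (4.01), TNFRSF11B (4.00), TNFRSF1B (0.321) and TNFRSF11A (0.268). The first gene was thus at the 98.9th percentile of 15107 genes in level per kb and the last at the 5.69th. No pair among FAS, TNFRSF10D and TNFRSF11B differed beyond the spread of the 3 control libraries in level per kb, and neither did TNFRSF1B and TNFRSF11A. TNFRSF12A alone made up 67.6% of the summed level per kb of the 10 members in SiHa PR and 71% with P4HA3, and TNFRSF1A 22.1% and 18.8%. With P4HA3 the ranges of the level per kb of TNFRSF21, TNFRSF10D and FAS overlapped, while that of TNFRSF11B lay below all 3 of them. The place of FAS depends on the transcript taken, because it moved from rank 6 to rank 8 with its longest transcript (16484 nt) in place of the canonical one (3696 nt).

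The death domain members were TNFRSF1A, TNFRSF10A, TNFRSF10B, TNFRSF21 and FAS. TNFRSF1A (ENSG00000067182, GRCh38 chromosome 12, 6328757 to 6342114, minus strand) is the broadly expressed receptor of soluble TNF. Its level was 272.5, 288.4 and 254.0 CPM in SiHa PR replicates 1, 2 and 3 and 239.5, 215.9 and 229.0 CPM in the P4HA3 replicates. Every P4HA3 library thus lay below every control library. The mean went from 272 ± 17.2 to 228 ± 11.8 CPM (SD, n = 3 each), and the log2 fold change was -0.25 (SE 0.06, 95% interval -0.39 to -0.11, edgeR quasi-likelihood test with Benjamini-Hochberg adjusted p = 0.0242). The call rested on single libraries and on the GC trend. Without SiHa PR replicate 1 the adjusted p was 0.095, without SiHa PR replicate 2 it was 0.114 and without P4HA3 replicate 3 it was 0.0831, with log2 fold changes of -0.25, -0.21 and -0.25. At its GC content of 57.5% and length of 2171 nt the trend alone gave a log2 difference of -0.16, and with the trends removed the log2 fold change was -0.10 (edgeR adjusted p = 0.113).

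TNFRSF10A and TNFRSF10B are the death receptors of TRAIL, and both lie on the minus strand of chromosome 8, at 23190452 to 23225102 and at 23020133 to 23069031. TNFRSF10B stood at 129.8, 122.3 and 126.6 CPM in SiHa PR and 124.1, 118.1 and 124.7 CPM with P4HA3, and its groups overlapped. Its log2 fold change was -0.05 with an interval of -0.17 to 0.07, so these libraries left room only for small differences in this gene (adjusted p = 0.549, edgeR). TNFRSF10A stood at 25.4, 24.1 and 24.3 CPM in SiHa PR and 25.6, 21.3 and 23.3 CPM with P4HA3. Its groups overlapped as well, with a log2 fold change of -0.07 (interval -0.26 to 0.12, edgeR adjusted p = 0.552). Neither TRAIL death receptor was called under any alternative, and with the trends removed both log2 fold changes were -0.04. Exons of TNFRSF10B share 377 nt with RHOBTB2 on the opposite strand, which had 726 to 844 counts per library, and those of TNFRSF10A share 266 nt with TNFRSF10A-DT, which had 159 to 205. Whether the counting used strand is not given in the sources used here, so reads of these stretches cannot be assigned with certainty.

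FAS (chromosome 10, 88953813 to 89029605, plus strand), the receptor of FAS ligand, had 15.9, 15.3 and 16.6 CPM in SiHa PR and 15.97, 18.1 and 17.5 CPM with P4HA3. The groups overlapped and the log2 fold change was 0.11 (interval -0.08 to 0.30, edgeR adjusted p = 0.363). With 38% GC it is the member richest in A and T, where the trend gave 0.20, and with the trends removed its log2 fold change turned to -0.09 (adjusted p = 0.394). Its exons share 387 nt with ACTA2 on the opposite strand and 166 nt with STAMBPL1 on the same strand, which had 161 to 204 and 164 to 253 counts beside 327 to 445 for FAS. The longest overlap of FAS exons, 1899 nt, was with the lncRNA ENSG00000286116 on the opposite strand, which had 2 to 10 counts. TNFRSF21 (chromosome 6, 47231532 to 47309905, minus strand), a death domain receptor studied mostly in neurons and lymphocytes, had 16.8, 18.2 and 16.1 CPM in SiHa PR and 17.2, 19.1 and 15.97 CPM with P4HA3. The ranges nearly coincided, with a log2 fold change of 0.03 (interval -0.18 to 0.24, edgeR adjusted p = 0.814) that turned below 0 without SiHa PR replicate 3 (-0.0012) or P4HA3 replicate 2 (-0.04) and was 0.06 with the trends removed.

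Of the decoy members TNFRSF11B and TNFRSF10D, 1 fell and 0 rose (50% called, against 20.8% of all genes, on 2 genes only). TNFRSF11B (ENSG00000164761, chromosome 8, 118923557 to 118951885, minus strand) encodes osteoprotegerin, a secreted decoy that binds RANKL and also TRAIL. It stood at 8.75, 8.45 and 7.85 CPM in SiHa PR and 6.96, 6.36 and 6.70 CPM with P4HA3. All P4HA3 libraries were below all control libraries, on 180 to 213 counts against 143 to 170. TNFRSF11B fell from 8.35 ± 0.459 to 6.67 ± 0.299 CPM (SD, n = 3 each), a log2 fold change of -0.32 (SE 0.10, interval -0.54 to -0.10, edgeR adjusted p = 0.0451). At its GC content of 39.9% the trend gave a log2 difference of 0.14, and with the trends removed the log2 fold change was further from 0, at -0.46 (edgeR adjusted p = 0.0113). The call was close to the threshold in the uncorrected test. Without SiHa PR replicate 1 its adjusted p was 0.169, without SiHa PR replicate 2 it was 0.14, without P4HA3 replicate 2 it was 0.107 and without P4HA3 replicate 3 it was 0.126, and DESeq2 gave 0.123, while the log2 fold change stayed between -0.46 and -0.29 under all alternatives.

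TNFRSF10D (chromosome 8, 23135588 to 23164027, minus strand) encodes a TRAIL receptor with a truncated death domain. It had 14.1, 12.9 and 15.6 CPM in SiHa PR and 15.9, 17.5 and 17.4 CPM with P4HA3. The P4HA3 libraries all lay above the control libraries, the closest pair being 15.6 and 15.9 CPM. The log2 fold change was 0.25 (SE 0.10, interval 0.04 to 0.46), with an edgeR p of 0.023 before and 0.0797 after adjustment, so it was not called, nor was it with the trends removed (0.22, adjusted p = 0.0678). It was called without P4HA3 replicate 1 (edgeR adjusted p = 0.0393), and with the trends removed together with a block on the replicate number (0.043). The other TRAIL decoy, TNFRSF10C, had at most 2 counts in any library. Of the 100-nt stretches of its canonical transcript 24.2% are shared with other genes, and the handling of multiple matches is not given, so its counts are uncertain.

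The ratio of the level per kb of TNFRSF10B to that of TNFRSF10D, a TRAIL death receptor over its decoy, was 8.15, 8.41 and 7.19 in SiHa PR and 6.89, 5.97 and 6.35 with P4HA3. These ratios did not overlap between the groups, the closest pair being 7.19 and 6.89. Of all single genes tested, 40.1% did not overlap. For TNFRSF10A over TNFRSF10D the ratios were 2.37, 2.47 and 2.05 against 2.11, 1.61 and 1.76, and here the groups overlapped. The ratios were chosen after the members' values were seen and carry no test.

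The members without a death domain that bind TRAF adaptors were TNFRSF12A, TNFRSF1B and TNFRSF11A. None of these was called in the main test, where 20.8% of all genes were. TNFRSF12A (ENSG00000006327, chromosome 16, 3018445 to 3022383, plus strand) encodes Fn14, the small growth factor-inducible receptor of TWEAK. It stood at 399.3, 377.6 and 344.9 CPM in SiHa PR and 422.9, 380.1 and 362.8 CPM with P4HA3. The groups overlapped, and the mean was 374 ± 27.4 and 389 ± 30.9 CPM (SD, n = 3 each), a log2 fold change of 0.06 (interval -0.11 to 0.22, edgeR adjusted p = 0.609). It is the member highest in GC (62.6%) and shortest (977 nt), where the trend gave -0.24, and with the trends removed its log2 fold change was 0.30 (0.295, edgeR adjusted p = 0.00253). The call of TNFRSF12A therefore rests on that correction, and without P4HA3 replicate 1 the uncorrected value was -0.0088. The level per kb of TNFRSF12A over that of TNFRSF1A was 3.26, 2.91 and 3.02 in SiHa PR and 3.92, 3.91 and 3.52 with P4HA3. This ratio did not overlap between the groups, beside 40.1% of all single genes tested. It was also chosen after the values were seen, and compares genes that differ in GC content and length.

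TNFRSF1B (chromosome 1, 12166991 to 12209228, plus strand), the second TNF receptor, is best known from lymphoid and myeloid cells. It had 31, 31 and 20 counts in SiHa PR and 18, 25 and 16 with P4HA3, or 0.82 to 1.46 against 0.63 to 1.11 CPM. The groups overlapped, and the log2 fold change of -0.50 had an interval of -1.14 to 0.14 (edgeR adjusted p = 0.226), so a fall of more than 2-fold and no change were both within the precision of these counts. With the trends removed the TNFRSF1B value was -0.33 (adjusted p = 0.444, edgeR), and it was -0.32 without P4HA3 replicate 3, -0.33 without SiHa PR replicate 2 and -0.75 without P4HA3 replicate 2. TNFRSF11A (chromosome 18, 62325287 to 62391288, plus strand) encodes RANK, the receptor of RANKL in osteoclast precursors and mammary epithelium. It had 46, 47 and 60 counts in SiHa PR and 78, 55 and 58 with P4HA3. Its groups overlapped too, with a log2 fold change of 0.30 (interval -0.11 to 0.72, edgeR adjusted p = 0.256). The TNFRSF11A value was 0.25 with the trends removed (edgeR adjusted p = 0.417) and 0.12 (0.116) without P4HA3 replicate 1. TNFRSF1A exceeded TNFRSF1B 337- to 528-fold in level per kb in SiHa PR and 330- to 617-fold with P4HA3.

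**Figure D2:**
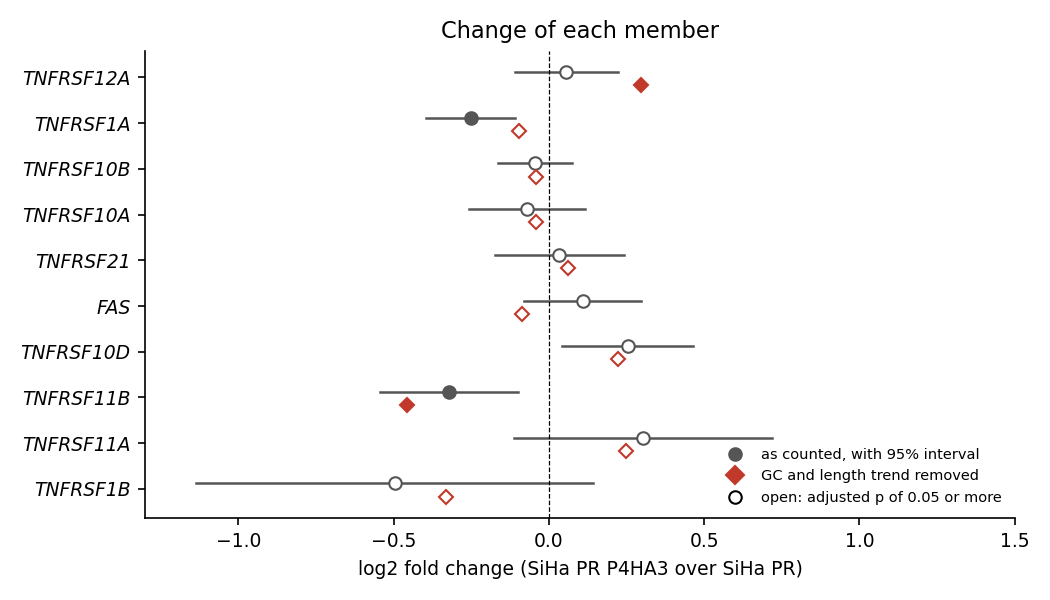
Log2 fold change of each member, SiHa PR P4HA3 over SiHa PR, as counted (grey circles, with 95% interval) and with the GC and length trends removed (red diamonds); filled symbols have an adjusted p under 0.05. TNFRSF11B is filled in both, TNFRSF1A only as counted and TNFRSF12A only with the trends removed.

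**Figure D3:**
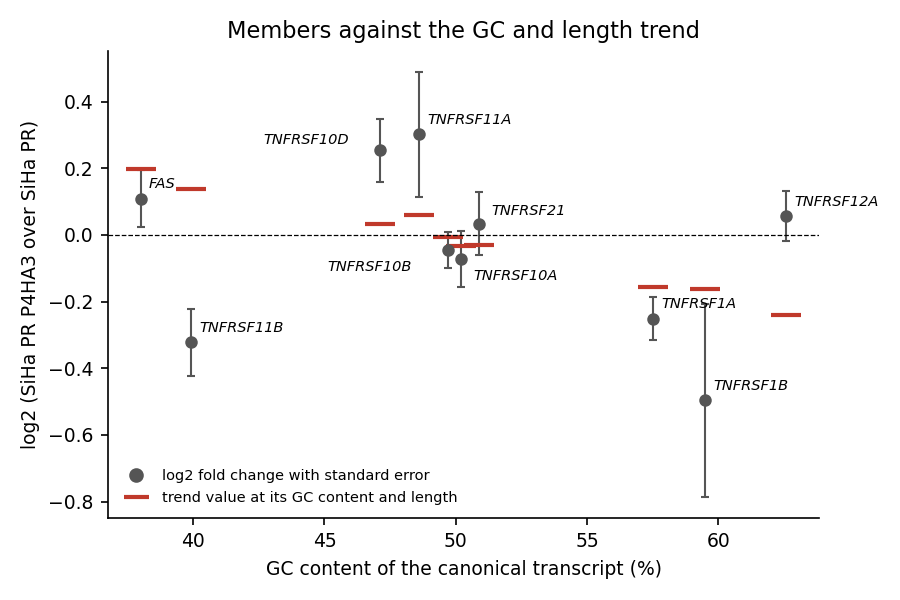
Log2 fold change of each member with its standard error (circles) against the GC content of its canonical transcript in percent, with the fitted trend value of each member as a red bar. TNFRSF1A lies 0.10 below its trend value and TNFRSF11B 0.46 below, while TNFRSF12A lies 0.30 above.

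No stretch of 100 nt in the canonical transcript of any of the 10 members was shared with the canonical transcript of another gene (0 of the windows of each). Within the family, 19 other receptors were listed, of which 6 passed the filter and 7 had at most 3 counts in every library. Of those 6, 4 fell and 0 rose (66.7% called, against 20.8% of all genes), with a median log2 fold change of -0.36, or -0.24 (-0.245) with the trends removed. TNFRSF14, the receptor of LIGHT, went from 3.72 to 2.39 CPM (log2 fold change -0.63, edgeR adjusted p = 0.0207), TNFRSF8, known as CD30, from 6.34 to 4.70 CPM (-0.43, adjusted p = 0.0194), CD40, the receptor of CD40 ligand, from 45.3 to 37.0 CPM (-0.29, adjusted p = 0.0253), and LTBR, the lymphotoxin beta receptor, from 206 to 169 CPM (-0.28, adjusted p = 0.0117). With the trends removed only CD40 of these 4 was still called (-0.24, edgeR adjusted p = 0.0111). The count of 4 was 0 without SiHa PR replicate 1 or 2, and 2 without P4HA3 replicate 3.

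For the ligands of the members, TNF, FASLG and TNFSF11, which encode TNF, FAS ligand and RANKL, had 0 counts in every library, which allows up to 0.118 to 0.141 CPM. Of 19 ligands listed, 6 were tested, and of these 3 fell and 0 rose (50% called, against 20.8% of all genes), with a median log2 fold change of -0.24. With the trends removed 2 fell and the median was -0.06. TNFSF10, which encodes TRAIL, the ligand of TNFRSF10A, TNFRSF10B, TNFRSF10D and TNFRSF11B, stood at 59.3, 64.7 and 64.4 CPM in SiHa PR and 38.7, 32.8 and 40.4 CPM with P4HA3. Every control library was well above every P4HA3 library. TNFSF10 fell from 62.8 ± 3.06 to 37.3 ± 4.00 CPM (SD, n = 3 each), a log2 fold change of -0.75 (SE 0.08, edgeR adjusted p = 0.000872), and its value with the trends removed was -0.88 (edgeR adjusted p = 7.04e-05). It remained called under all 15 alternatives, with log2 fold changes from -0.88 to -0.67. TNFSF9, the ligand of 4-1BB, fell from 77.2 to 59.7 CPM (log2 fold change -0.37, edgeR adjusted p = 0.00663), with -0.21 after removal of the trends (adjusted p = 0.00529). CD70, the ligand of CD27, fell from 335 to 286 CPM (-0.23, adjusted p = 0.0478), a call that ended with the trends removed (-0.02) and without SiHa PR replicate 1 (-0.24), SiHa PR replicate 2 (-0.18), P4HA3 replicate 2 (-0.19) or P4HA3 replicate 3 (-0.21). TNFSF12, which encodes TWEAK, the ligand of TNFRSF12A, stood at 7.68 and 6.41 CPM and was not called (edgeR adjusted p = 0.129).

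Of 28 tested genes of death signalling below the receptors, 4 rose, 3 fell and 21 were not called, with a median log2 fold change of 0.06, so that 25% were called against 20.8% of all genes. With the trends removed 3 rose and 2 fell, with a median of -0.0011. FADD (-0.17, edgeR adjusted p = 0.0682), CASP8 (0.09, adjusted p = 0.419) and CFLAR (0.01, adjusted p = 0.912), an adaptor, the initiator caspase and its inhibitor at the death receptors, were not called in log2 fold change. TRADD, the other adaptor, was called lower (log2 fold change -0.25, edgeR adjusted p = 0.0446). With the trends removed the TRADD value was 0.0013 (edgeR adjusted p = 0.988). FAIM, an inhibitor of FAS-induced death, rose from 11.0 to 15.4 CPM (log2 fold change 0.49, edgeR adjusted p = 0.00558) and was called under all alternatives. BIRC2, a ubiquitin ligase of TNF receptor complexes, rose from 27.0 to 37.6 CPM (0.48, adjusted p = 0.0396). Its value was 0.26 with the trends removed (edgeR adjusted p = 0.0453), and without P4HA3 replicate 2 its log2 fold change was 0.30 (0.295) with an edgeR adjusted p of 0.0587. CASP10, an initiator caspase, fell from 19.1 to 15.5 CPM (log2 fold change -0.30, edgeR adjusted p = 0.0336). The calls of BIRC2 and CASP10 ended without SiHa PR replicate 1 (edgeR adjusted p = 0.14 and 0.153), SiHa PR replicate 2 (0.171 and 0.0751), P4HA3 replicate 2 (0.0587 and 0.0644) or P4HA3 replicate 3 (0.0832 and 0.0875), and that of CASP10 also without SiHa PR replicate 3 (0.0653). Without SiHa PR replicate 1 or 2, 1 of the list rose and 0 fell. Without P4HA3 replicate 2 the counts were 1 and 1, and without P4HA3 replicate 3 they were 1 and 0. The counts were 6 higher and 7 lower without P4HA3 replicate 1.

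Of 29 tested genes of TRAF and NF-kB signalling, 3 rose and 7 fell (34.5% called, against 20.8% of all genes, with a median log2 fold change of -0.02). With the trends removed 2 rose and 2 fell, where 18.2% of all genes were called. RELB, a subunit of alternative NF-kB signalling, fell from 15.6 to 11.2 CPM (log2 fold change -0.48, edgeR adjusted p = 0.00645), and its call ended with the trends removed (-0.23, adjusted p = 0.0568). MAP3K14, which encodes the kinase NIK of the same branch, rose from 29.8 to 38.4 CPM (0.36, edgeR adjusted p = 0.0119), and stood at 0.52 (0.515) with the trends removed, while without SiHa PR replicate 1 its adjusted p was 0.0589. NFKBIE, an inhibitor of NF-kB, fell (log2 fold change -0.37, edgeR adjusted p = 0.0264). Its call ended with the trends removed (-0.18, adjusted p = 0.116) and without SiHa PR replicate 1 (0.12), SiHa PR replicate 2 (0.112), P4HA3 replicate 2 (0.0508) or P4HA3 replicate 3 (0.0758). IKBKG, a scaffold subunit of the IKK complex, rose (log2 fold change 0.39, edgeR adjusted p = 0.0486), but its groups overlapped and its transcript shares 52% of its 100-nt windows with a pseudogene, so its counts are uncertain. The IKBKG value was 0.61 with the trends removed (adjusted p = 0.00132, edgeR), and its call ended without SiHa PR replicate 1 (adjusted p = 0.151), SiHa PR replicate 2 (0.0641), SiHa PR replicate 3 (0.116) or P4HA3 replicate 3 (0.176). Without SiHa PR replicate 1 the list's counts were 0 higher and 1 lower, and without SiHa PR replicate 2 they were 1 and 1. The counts were 1 higher and 2 lower without P4HA3 replicate 3, and 2 and 3 without P4HA3 replicate 2. They were 7 higher and 9 lower without P4HA3 replicate 1.

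Of 17 tested NF-kB target genes, 11 fell and 0 rose (64.7% called, against 20.8% of all genes), with a median log2 fold change of -0.48, and 10 were lower with the trends removed (median -0.38). CXCL1, a neutrophil chemokine, fell from 17.3 to 9.08 CPM (log2 fold change -0.93, edgeR adjusted p = 0.000938). CXCL2, its close relative, fell from 1.72 to 0.957 CPM (-0.84, adjusted p = 0.024), IER3, an immediate early gene, from 52.2 to 33.4 CPM (-0.64, adjusted p = 0.00261) and TNFAIP2, a TNF-induced gene, from 346 to 235 CPM (-0.56, adjusted p = 0.000592). TNFAIP3, which encodes the deubiquitinase A20 of the TNF receptor pathway, was not called (60.7 and 62.7 CPM, log2 fold change 0.05, edgeR adjusted p = 0.612). The CXCL2 call, on few counts, ended without SiHa PR replicate 1 (edgeR adjusted p = 0.0886), SiHa PR replicate 2 (0.108) or P4HA3 replicate 3 (0.0788) and with DESeq2 (0.0745). The list shares NFKBIA, TNFAIP3, TRAF1, RELB and NFKB2 with the signalling genes, and the 11 were 5 without SiHa PR replicate 1 or 2 and 6 without P4HA3 replicate 3. Of 10 genes of receptor shedding and trafficking, 1 rose and 9 were not called (10% called, against 20.8% of all genes). The called gene was ERAP1, an aminopeptidase that takes part in shedding of TNFRSF1A. It rose from 22.7 to 30.1 CPM (log2 fold change 0.41, edgeR adjusted p = 0.00741). ADAM17, the main sheddase of TNFRSF1A and TNFRSF1B, stood at 42.5 and 42.3 CPM (log2 fold change -0.0048, edgeR adjusted p = 0.968). With the trends removed the ADAM17 value was -0.14 (edgeR adjusted p = 0.054). The ERAP1 call ended without SiHa PR replicate 2 (0.39, adjusted p = 0.0537), and the list had 3 higher without SiHa PR replicate 3 and 4 without P4HA3 replicate 1.

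**Figure D4:**
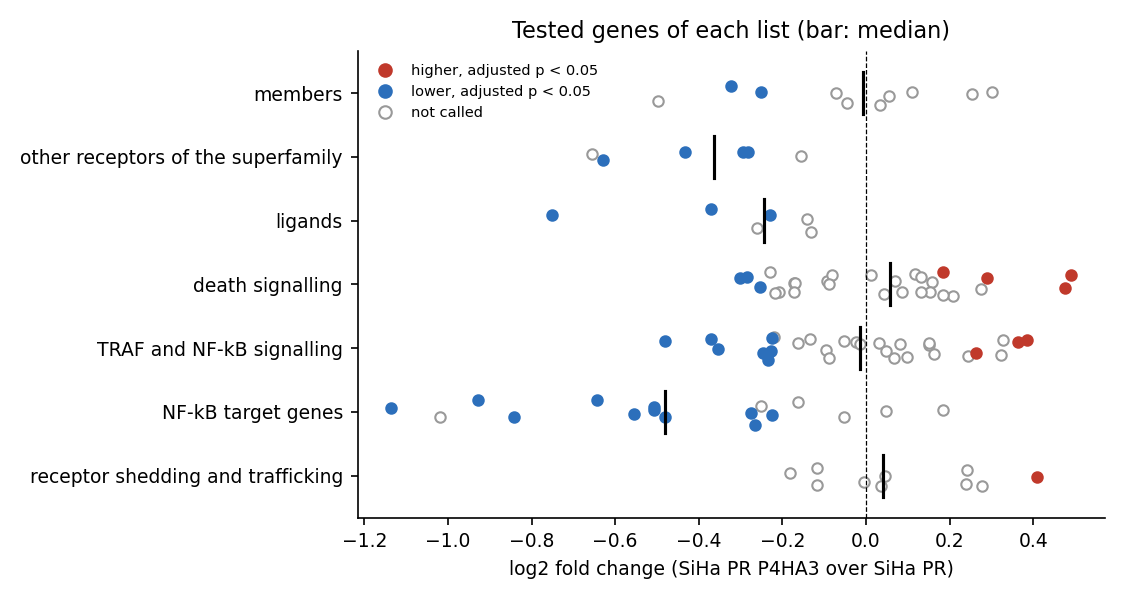
Log2 fold change, SiHa PR P4HA3 over SiHa PR, of each tested gene of the members and of 6 related lists, with red for called higher, blue for called lower, open for not called and a bar for the median. The members center near 0 (-0.0063), while the NF-kB target genes have a median of -0.48 and no called rise.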

How the data were processed

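RNA-seq of 3 SiHa PR and 3 SiHa PR P4HA3 libraries was analysed. The growth protocol label describes smooth muscle tissue, but the cell line and source labels and the study give SiHa cells, which was used here. According to the study's methods, the authors made stranded (dUTP) libraries from poly-A RNA, read both ends, aligned reads to GRCh38 with STAR and counted them per gene with HTSeq, whereas the submitters' processing notes name HISAT2. Versions, the strand setting and the handling of multiple matches are not given in the sources used here. The deposited values are raw counts of 60664 Ensembl genes in 6 columns. Of the identifiers, 60463 matched GENCODE 44, which gave symbols, positions, GC content and canonical transcript length.

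The groups were compared by the two-sided quasi-likelihood test of edgeR 4.0.16 (R 4.3.3; glmQLFit, glmQLFTest) after filterByExpr (minimum count 10) and TMM. P-values were adjusted by Benjamini-Hochberg over 15130 genes, with a threshold of 0.05. Group was the only term. Levels are TMM-normalized CPM. The common biological coefficient of variation was 7.66%, and no libraries of 1 group agreed within sampling noise. At 21773488 to 24939948 counts per library, low genes are limited by counting. For the GC and length correction, each library's trend was fitted with mgcv 1.9.3 on log2 CPM with a pseudocount of 0.5 and entered as an offset. Alternatives were DESeq2 1.42.0, limma-voom (limma 3.58.1), RLE or library-size normalization, other filters, the replicate number as a block, and each library left out. The test was checked on simulated counts.

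The members and lists were chosen with earlier results of these data known. Named genes are P4HA3, the 10 members and, of each related list, up to 4 called genes with the largest log2 fold change and a mean of at least 1 CPM. Other list genes were chosen after their values were seen. One gene that the rule names is not reported here. Promoter letters came from RefSeq.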

Additional observations from a re-analysis of the deposited data

How the results depend on the processing

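The replicate numbers were not taken to pair the samples. The correlations of same-numbered libraries' deviations were 0.25, -0.049 and 0.03, where all 9 pairs of a control and a P4HA3 library ran from -0.3 to 0.27. These few values cannot exclude a pairing. With the replicate number as a block, 4313 genes were changed in place of 3147, 2 members were lower and 0 higher, and the median log2 fold change of the members was -0.0072. Members called lower were 1 with DESeq2, 1 with library sizes only, 1 without a filter on low counts, 1 with the GC and length trends removed and 1 with the trends removed and the replicate block, in place of 2. Members called higher were 1 with the trends removed and 2 with the trends removed and the replicate block (TNFRSF12A and TNFRSF10D), in place of 0. Leaving out 1 library in turn gave 0 to 2 members lower, 0 to 1 higher and 534 to 5530 genes changed: 781 without SiHa PR replicate 1, 534 without SiHa PR replicate 2, 5530 without P4HA3 replicate 1 and 904 without P4HA3 replicate 3. Log2 fold changes that changed sign were TNFRSF12A (-0.00881 to 0.105 over the libraries left out), TNFRSF21 (-0.039 to 0.0954 over the libraries left out) and FAS (-0.0876 with the trends removed and -0.0855 with the replicate block as well). The cause was not tested. Depth limited TNFRSF1B and TNFRSF11A, with 16 to 78 counts per library.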
